A study of Mus musculus with 6 samples.

Results

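In mouse brown adipose tissue, 10 genes of the heat shock system were followed: the heat-inducible Hsp70 chaperones Hspa1a and Hspa1b, their neighbour Hspa1l, the constitutive Hsp70 Hspa8, the cochaperones Hsph1, Dnajb1 and Bag3, the heat shock transcription factor Hsf1, and the cold-inducible RNA-binding proteins Cirbp and Rbm3. They were taken by symbol, 10 genes of the 45777 in the deposited table, and were chosen by the read counts of these same libraries, with the difference between the groups already known. Their levels and differences are therefore a description. Where it is said which of them passed the threshold of the fit over all genes, this describes that fit and is no independent test of them. The groups were male wild type C57Bl6/J mice injected intraperitoneally with ginsenoside Rb2, a saponin of ginseng, and mice injected likewise with phosphate-buffered saline (PBS), both for 2 weeks. RNA of 3 mice per group was sequenced from libraries that keep the strand. The sources used here do not give the mice's age, the Rb2 dose, the housing temperature or the hour of collection.

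Hsp70 proteins bind unfolded polypeptides and release them in a cycle driven by ATP. J-domain proteins such as Dnajb1 bring the polypeptide and start ATP hydrolysis, and nucleotide exchange factors such as Hsph1 and Bag3 end the cycle. Hsf1 is held inactive by chaperones in unstressed cells, and when unfolded proteins draw these away it binds heat shock elements, repeats of GAA in alternating orientation, and raises transcription of Hspa1a, Hspa1b, Dnajb1, Hsph1 and Bag3. Hspa8 supplies Hsp70 activity without stress, and Hspa1l is known mainly from testis. Cirbp and Rbm3 bind RNA and are raised by mild cooling of mammalian cells. Brown fat makes heat, so its own temperature varies with its activity.

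Total counts ran from 83642183 to 92666780 per library. Libraries are named by group and column number (Rb2 1, 3 and 4, and PBS 1, 2 and 4). Levels are CPM, counts scaled by TMM factors to a common library size. The 12 markers of brown adipocytes had counts in all 6 libraries, with Ucp1, the uncoupling protein of brown fat, at 3670 ± 910 CPM in Rb2 and 3980 ± 711 CPM in PBS (SD, n = 3 each). Skeletal muscle transcripts varied widely: the 15 muscle markers summed to 6.84, 458 and 271 CPM in Rb2 1, 3 and 4, against 2390, 7350 and 14.0 CPM in PBS 1, 2 and 4, with 8 of the 15 at 0 in Rb2 1 and 1 in PBS 4. The first principal component held 51.8% of the variance and put PBS 4 (-25.0) on the side of the Rb2 libraries (-78.7 to -12.6), away from PBS 1 (55.7) and PBS 2 (77.5).

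Hspa1a, Hspa1b and Hspa1l lie side by side on chromosome 17 in the GRCm38 build. RefSeq places Hspa1b at 34956429 to 34959238 and Hspa1a at 34969359 to 34972156, both on the minus strand, and Hspa1l at 34972703 to 34979228 on the plus strand. The reading frames of Hspa1a and Hspa1b (1926 and 1929 bases) were 99.43% identical, with 11 differences, positions of alignment gaps included. Of the 100-base windows of the Hspa1a transcript 47.1% also occurred in that of Hspa1b. Reads from those windows cannot be assigned to 1 of the 2 genes, so their separate values are uncertain and their sum is given as well. Hspa1l was 82.72% identical to Hspa1a, and 134 of its 2373 windows (5.65%) occurred in Hspa1a. Hspa8 shared no such window with any of the 3. Among stretches of 80 reading-frame bases that align without a gap, the one with the most differences between Hspa1a and Hspa1b is shown. It bears on how their reads can be told apart. Stretches over a gap were not considered. Capitals mark, in Hspa1a, the bases that differ from Hspa1b and, in Hspa1b and Hspa1l, the bases that differ from Hspa1a. The stretches lie at chr17:34970510-34970589 (minus strand), chr17:34957592-34957671 (minus strand) and chr17:34978329-34978408 (plus strand).
Hspa1a: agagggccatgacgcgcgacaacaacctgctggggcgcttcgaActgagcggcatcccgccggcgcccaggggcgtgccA
Hspa1b: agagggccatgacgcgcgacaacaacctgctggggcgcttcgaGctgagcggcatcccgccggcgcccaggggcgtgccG
Hspa1l: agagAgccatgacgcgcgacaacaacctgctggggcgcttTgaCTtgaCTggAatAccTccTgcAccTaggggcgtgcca
Hspa1b differs from Hspa1a at 2 of these bases and Hspa1l at 12, and the first part of the stretch is nearly the same in all 3 genes.

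The sequences before the start sites of Hspa1a and Hspa1b are shown because the 2 copies also share their promoter: 247 of the 250 bases upstream were identical (98.8%). The 120 bases next to the RefSeq start sites (GRCm38.p6, minus strand) are at chr17:34972157-34972276 for Hspa1a and chr17:34959239-34959358 for Hspa1b, with a pair of GAA units in opposite orientation in capitals.
Hspa1a: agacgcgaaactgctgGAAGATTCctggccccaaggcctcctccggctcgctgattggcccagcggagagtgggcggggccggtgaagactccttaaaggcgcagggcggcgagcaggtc
Hspa1b: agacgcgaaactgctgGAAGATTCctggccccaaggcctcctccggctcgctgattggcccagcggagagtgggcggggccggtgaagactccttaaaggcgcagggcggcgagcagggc
The pair of units stands at positions -104 to -97 in both. Promoters run from 250 bases before to 50 after the start. The promoter set used here held 7 of the 10 genes, all but Hspa8, Hsf1 and Rbm3. A pair of units (GAANNTTC or TTCNNGAA, each the same on both strands) was found in 4 of the 7, Hspa1a, Hspa1b, Hsph1 and Bag3, and in 17% of the 27025 genes with a promoter listed (15.1% of all 32851 promoters). A longer run, GAANNTTC followed by NNGAA or its reverse complement, TTCNNGAA followed by NNTTC, contains both pairs and was found in Hsph1 and in 0.662% of those genes (0.603% of promoters). In Hsph1 it stands just after the start sites (chr5:149636280-149636308, minus strand), shown with the run in capitals.
Hsph1: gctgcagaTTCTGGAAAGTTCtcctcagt
A match to these letters is not a measured binding site.

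In the fit over all genes, 3 of the 10 genes, Hspa1l, Bag3 and Cirbp, passed the threshold, all lower in Rb2 (quasi-likelihood test of edgeR at a threshold of 0.05 on the p adjusted by Benjamini-Hochberg). Of the 16707 genes tested 10.4% passed, 5.11% lower and 5.33% higher. The groups did not overlap in 5 of the 10, the same 3 with Hspa1a and Hspa1b, all lower in Rb2, against 35.8% of all genes tested (17.6% lower). All 10 genes passed the filter on low counts. Their median log2 fold change (Rb2 over PBS) was -0.78, against -0.01 over all genes tested. Nothing is read from these counts, since the genes were chosen with this comparison known.

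**Figure D1:**
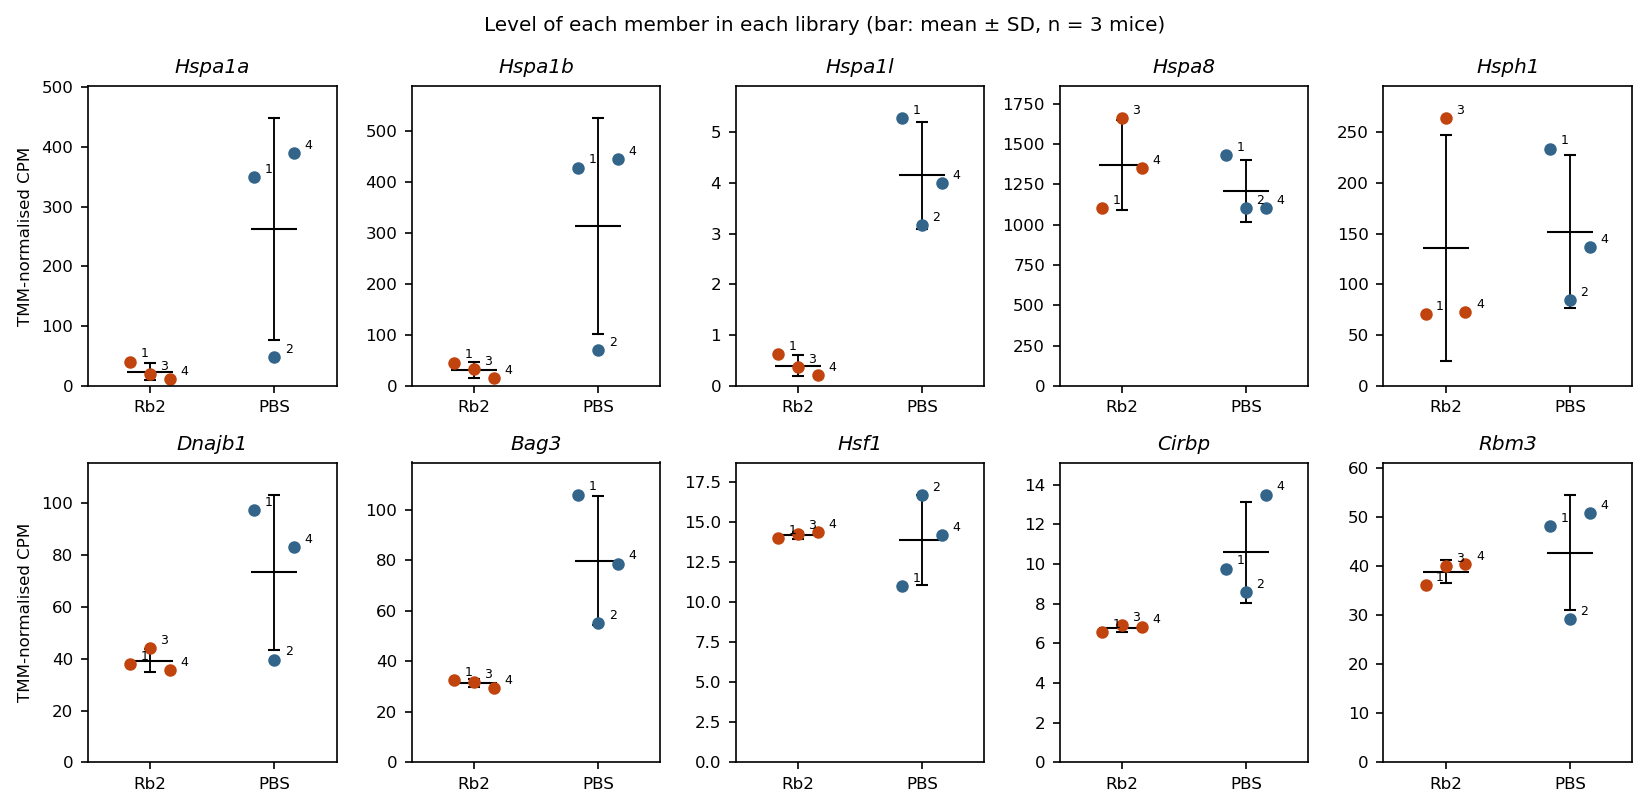
TMM-normalised CPM (y axis, from 0 in each panel) of the 10 genes in the 3 Rb2 (left, orange) and 3 PBS libraries (right, blue), each point numbered by its library, with the mean ± SD of a group as a black bar. For Hspa1a and Hspa1b PBS 2 sits far below PBS 1 and PBS 4 and just above the Rb2 libraries; for Hsph1 Rb2 3 (264 CPM) is the highest point of all 6.

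The inducible Hsp70 genes were about 10-fold lower in Rb2, but with a wide spread between the PBS mice. Hspa1a stood at 40.7, 19.6 and 11.8 CPM in Rb2 1, 3 and 4, against 349, 48.4 and 389 CPM in PBS 1, 2 and 4. The log2 fold change was -3.45 ± 1.04 (SE), or 10.9-fold lower in Rb2. Every Rb2 library was below every PBS library, while PBS 2 was closer to the Rb2 libraries than to the other 2 PBS libraries. Hspa1b stood at 45.7, 33.7 and 15.5 CPM in Rb2 1, 3 and 4, against 429, 69.8 and 445 CPM in PBS 1, 2 and 4 (log2 fold change -3.31 ± 0.92 SE, 9.94-fold lower). The pattern over the libraries was that of Hspa1a. Summed, the 2 copies gave 86.4, 53.3 and 27.4 CPM in Rb2 and 777, 118 and 834 CPM in PBS (log2 fold change -3.37 ± 0.96 SE). Hspa1a took 36.8% to 47.1% of the summed count in Rb2 and 40.9% to 46.7% in PBS, so the groups overlapped in the division between the copies. In edgeR neither copy nor the sum was among the calls, whereas the DESeq2 Wald test called both copies. Without PBS 2, Hspa1b was at -3.79 ± 0.45 SE and among the edgeR calls, and Hspa1a was at -3.94 ± 0.57 SE and was not. Of the 6 edgeR fits with 1 library left out, this was the only 1 that called Hspa1b, and 0 called Hspa1a.

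Hspa1l was low and, relative to its level, had the widest gap between the groups of the 10 genes. It had 53, 30 and 20 counts in Rb2 1, 3 and 4 (0.626, 0.364 and 0.216 CPM), against 428, 307 and 391 counts in PBS 1, 2 and 4 (5.28, 3.17 and 4.0 CPM). The log2 fold change was -3.37 ± 0.39 (SE), or 10.3-fold lower in Rb2. PBS 2 was again the lowest PBS library, and every Rb2 library was far below it. As a share of the summed Hspa1a and Hspa1b count, Hspa1l was 0.724% (95% interval 0.543% to 0.946%), 0.682% (0.461% to 0.972%) and 0.790% (0.483% to 1.22%) in Rb2 1, 3 and 4. In PBS 1, 2 and 4 the share was 0.679% (0.617% to 0.746%), 2.69% (2.40% to 3.0%) and 0.479% (0.433% to 0.529%). The intervals are exact binomial ones and cover counting error only. PBS 2 stood above the other 5 libraries in this share and PBS 4 below PBS 1. Whether reads of the Hspa1a and Hspa1b stretches shared with Hspa1l entered its count was not tested. GENCODE places the antisense gene Gm10501 over 1778 exon bases of Hspa1l (71.9%) and Gm20481, on the other strand, over 564 exon bases of Hspa1a (19.0%). The sources used here do not say whether the counting used the strand, so reads of these overlaps cannot be told apart.

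The constitutive Hspa8 was by far the most abundant of the 10 genes and its groups overlapped. It stood at 1100, 1660 and 1350 CPM in Rb2 1, 3 and 4, against 1430, 1100 and 1100 CPM in PBS 1, 2 and 4 (log2 fold change 0.18 ± 0.19 SE). Rb2 3 was the highest library. The count of Hspa8 was 12.7, 31.1 and 49.2 times the summed Hspa1a and Hspa1b count in Rb2 1, 3 and 4, and 1.84, 9.32 and 1.32 times in PBS 1, 2 and 4.

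Among the cochaperones, Bag3 was lower in every Rb2 library. Bag3 (chromosome 7, 128523583 to 128546981) links Hsp70 to small heat shock proteins and to autophagy. It stood at 32.6, 31.8 and 29.5 CPM in Rb2 1, 3 and 4, against 106, 55.2 and 78.7 CPM in PBS 1, 2 and 4. The Rb2 libraries lay close together, and PBS 2 was the lowest PBS library. The log2 fold change was -1.35 ± 0.21 (SE), or 2.55-fold lower. Dnajb1 (chromosome 8, 83608175 to 83612653), the J-domain partner of Hspa1a and Hspa1b, stood at 37.8, 44.2 and 35.6 CPM in Rb2 and 97.3, 39.6 and 82.9 CPM in PBS (log2 fold change -0.90 ± 0.32 SE). The groups overlapped because PBS 2 fell within the Rb2 range. Without PBS 2 the log2 fold change of Dnajb1 was -1.20 ± 0.17 SE and it was among the edgeR calls. Of the 6 edgeR fits with 1 library left out, this was the only 1 that called Dnajb1. The DESeq2 Wald test with all libraries called it as well.

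Hsph1, an Hsp110 protein that exchanges the nucleotide of Hsp70, did not follow these genes. It stood at 70.8, 264 and 72.5 CPM in Rb2 1, 3 and 4, against 234, 84.6 and 137 CPM in PBS 1, 2 and 4 (chromosome 5, 149616843 to 149636498; log2 fold change -0.16 ± 0.72 SE). The level in Rb2 3 was the highest of all, although Hspa1a and Hspa1b were low there. Without Rb2 3 the log2 fold change was -1.08 ± 0.43 SE and did not pass the threshold.

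Hsf1 itself had nearly the same level in both groups. It stood at 14.0, 14.3 and 14.4 CPM in Rb2 1, 3 and 4, against 11, 16.7 and 14.2 CPM in PBS 1, 2 and 4 (chromosome 15, 76477362 to 76501155; log2 fold change 0.03 ± 0.16 SE). The Rb2 values lay inside the PBS range. Hsf1 is controlled largely by its protein's state, which transcript levels do not show.

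The 2 cold-inducible genes differed from each other. Cirbp (chromosome 10, 80165990 to 80172786) stood at 6.55, 6.92 and 6.81 CPM in Rb2 1, 3 and 4, against 9.77, 8.57 and 13.5 CPM in PBS 1, 2 and 4. The Rb2 libraries were nearly equal and all were below PBS, with a log2 fold change of -0.65 ± 0.18 (SE), or 1.57-fold lower. Rbm3 (chromosome X, 8138975 to 8145880) stood at 36.2, 40.0 and 40.5 CPM in Rb2, inside the PBS range of 48.2, 29.2 and 50.9 CPM (log2 fold change -0.14 ± 0.20 SE). The Cirbp count was 18.1%, 17.3% and 16.8% of the Rbm3 count in Rb2 1, 3 and 4, and 20.2%, 29.3% and 26.5% in PBS 1, 2 and 4. That share was lower in every Rb2 library than in any PBS library.

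**Figure D2:**
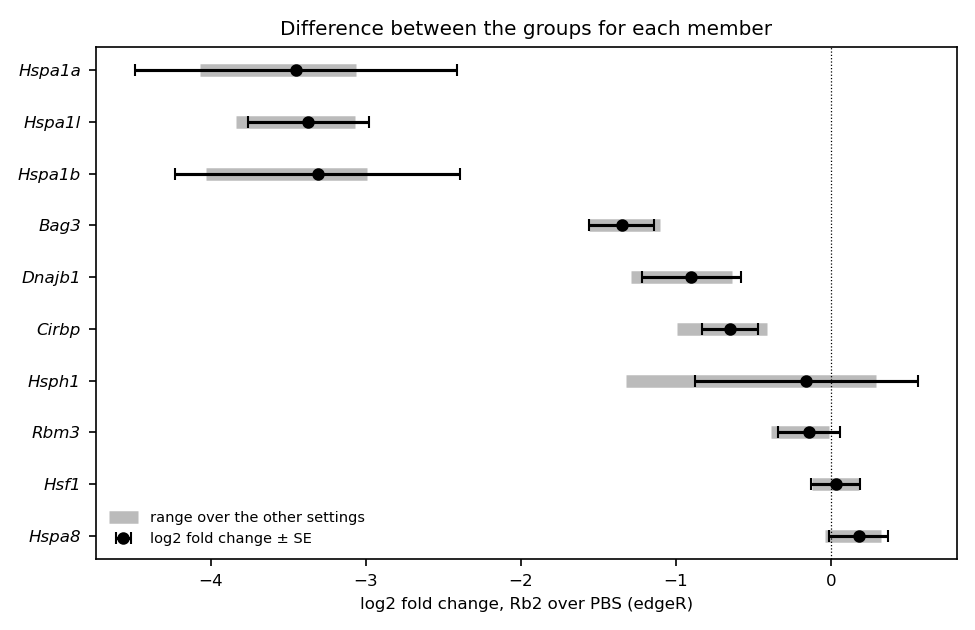
Log2 fold change (Rb2 over PBS, x axis) of the 10 genes from edgeR (points, bars ± SE) with the lowest and highest value over the other settings of the analysis (grey). Hspa1a, Hspa1l and Hspa1b lie between -3.45 and -3.31 and stay below 0 in every setting tried, as do Bag3, Dnajb1 and Cirbp. Rbm3 stayed below 0 as well (-0.39 to -0.01), and Hsph1 ran from -1.32 to 0.29.

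Per kilobase of the longest GENCODE transcript, which allows a rough comparison of levels between genes, the order differed between the groups. Which transcript of a gene was expressed was not tested. The values of Hspa1a, Hspa1b and Hspa1l also carry the uncertainty in read assignment given above. In Rb2, Hspa8 led with 434 CPM per kilobase, followed by Hsph1 (28.5), Rbm3 (13.9), Dnajb1 (13.1), Bag3 (12.2), Hspa1b (11.3), Hspa1a (8.09), Cirbp (5.12), Hsf1 (4.53) and Hspa1l (0.163). From Rbm3 to Cirbp each gene overlapped the next over the 3 libraries, whereas Hspa8, Hsph1 (14.9 to 55.3) and, at the low end, Hsf1 and Hspa1l did not overlap their neighbours. In PBS, Hspa8 (383 CPM per kilobase) was followed by Hspa1b (112) and Hspa1a (88.3), then Hsph1 (31.9), Bag3 (31.2), Dnajb1 (24.4), Rbm3 (15.3), Cirbp (8.02), Hsf1 (4.44) and Hspa1l (1.68). From Hspa1b to Rbm3 each gene overlapped the next, and Hspa1b reached down to 24.9 and Hspa1a to 16.3 CPM per kilobase in PBS 2.

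The genes whose levels over the 6 libraries were most like the summed Hspa1a and Hspa1b level, by Pearson r of log2 CPM among 12602 candidates, were Tmem254a (r = 0.988), Tmem254b (0.987), Tmem254c (0.986), Unc119 (0.984) and Ddx60 (0.983). The first 3 are named as copies of 1 gene. For Cirbp they were Loxl3 (r = 0.992), Sec13 (0.987), Mvk (0.985), Fn3k (0.984) and Dda1 (0.980). With 6 libraries and so many candidates these values only rank the genes.

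**Figure D3:**
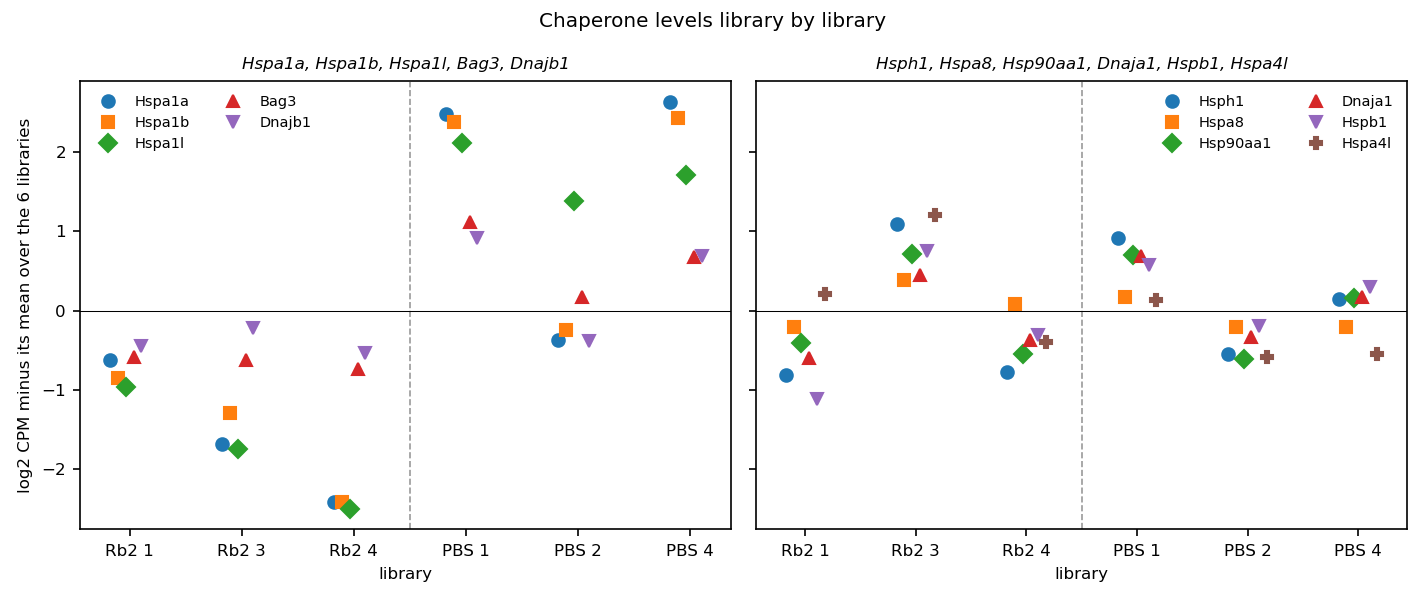
Log2 CPM minus its mean over the 6 libraries (y axis) for 5 chaperone genes that were lower in Rb2 on average by 0.90 or more (left) and 6 further chaperone genes (right), by library, Rb2 left of the dashed line. In Rb2 3 the genes at the right stand above 0 while those at the left stand below it. The genes of both panels were selected, so this contrast depends on their choice. Other network genes lower by 0.90 or more on average, such as Cryab (-1.19) and Hspb7 (-3.18), are not drawn.

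Other genes of the heat shock network were counted in 10 lists of 96 genes, 93 of which were tested. Of these 3 rose and 7 fell (edgeR, adjusted p under 0.05), or 10.8%, near the 10.4% of all genes. The list of further HSF1 target genes had 4 of 10 members lower and none higher, with a median log2 fold change of -0.53. Ubb fell to 351 ± 34.5 CPM in Rb2, against 581 ± 28.5 CPM in PBS (log2 fold change -0.73 ± 0.14 SE, adjusted p = 0.0173). It encodes a chain of ubiquitin, the small protein that marks others for degradation. Ier5 (-0.65, adjusted p = 0.0379), an immediate early gene, and Sqstm1 (-0.53, adjusted p = 0.0461), an autophagy receptor, fell as well. Sqstm1 shares 580 exon bases with Mrnip on the other strand. With GC content and transcript length fitted as an offset none of the 10 passed in edgeR, with Ubb at -0.47 (adjusted p = 0.106), Ier5 at -0.54 (adjusted p = 0.0724) and Sqstm1 at -0.36 (adjusted p = 0.142). With 1 library left out 0 to 3 of the 10 passed, and 0 without Rb2 3. The 3 that passed without PBS 4 were 1 higher and 2 lower. The 1 that passed without PBS 2 was not among the 4 of the main fit.

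In the rest of the Hsp70 family 1 of 10 genes rose and 2 fell. Hyou1, a chaperone of the endoplasmic reticulum, rose to 65.2 ± 8.89 CPM in Rb2, against 41.8 ± 4.16 CPM in PBS (log2 fold change 0.64 ± 0.14 SE, adjusted p = 0.0248). Hspa2 (-0.96 ± 0.21 SE, adjusted p = 0.0243), known for its role in spermatogenesis, fell. Hspa12b, a distant member known from endothelial cells, fell to 24.9 ± 4.83 CPM, against 50.1 ± 9.46 CPM in PBS (-1.01 ± 0.18 SE, adjusted p = 0.0125). Of 11 endothelial and stromal markers tested 2 fell with it (18.2%, against 10.4% of all genes tested called). The list summed to 1350 to 1760 CPM in Rb2 and 2020 to 2170 CPM in PBS. Of its 12 genes Krt8 had no count in any PBS library. Fewer cells of a type and less RNA per cell cannot be told apart in these bulk samples, here as elsewhere. Of 15 J-domain cochaperones Dnaja3, of mitochondria (0.71 ± 0.16 SE, adjusted p = 0.0287), and Dnajc7 (0.68 ± 0.14 SE, adjusted p = 0.0187), which binds both Hsp70 and Hsp90, rose. Dnaja3 shares 160 exon bases with Vasn on the same strand, and Dnajc7 shares 287 with Nkiras2 on the other. Of 12 further cochaperones Unc45b, a myosin chaperone of muscle, fell to 17.8 ± 4.90 CPM, against 34.2 ± 7.22 CPM in PBS (-0.94 ± 0.22 SE, adjusted p = 0.0339). In PBS 4, where the muscle markers summed to 14.0 CPM, it stood at 29.9 CPM.

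No member passed the threshold among the 4 Hsp90 genes, 7 small heat shock proteins, 6 BAG and other exchange factors and 10 chaperonins tested. Nor did any of 3 genes for other heat shock factors and their binding protein, or of 16 temperature-linked RNA-binding and splicing genes. These lists held 46 tested genes in all. Of these 12 had an unadjusted p under 0.05 in edgeR, 7 passed the DESeq2 Wald test and 0 passed limma-voom. The smallest p in these lists belonged to Hsp90b1 (log2 fold change 0.51, adjusted p = 0.0614), Hspb2 (-2.14, adjusted p = 0.165), Bag5 (-0.42, adjusted p = 0.0715), Hspd1 (0.58, adjusted p = 0.0622), Hsf4 (-0.35, adjusted p = 0.356) and Srsf3 (-0.50, adjusted p = 0.0565), all in edgeR. Second in each list were Trap1 (0.41, adjusted p = 0.131), Hspb6 (-1.78, adjusted p = 0.219), Hspbp1 (-0.31, adjusted p = 0.193), Tcp1 (0.31, adjusted p = 0.147), Hsbp1 (0.08, adjusted p = 0.714) and Rtn3 (0.37, adjusted p = 0.0930), an RNA target of Rbm3 in mouse brain. St13 (0.51, adjusted p = 0.0809) was second among the Hsp70 and Hsp90 cochaperones. Several small heat shock proteins are abundant in muscle. Hspb6 stood at 11.1, 17.1 and 11.7 CPM in Rb2 1, 3 and 4, against 35.2, 89.2 and 12.7 CPM in PBS 1, 2 and 4. PBS 1 and PBS 2 were the 2 libraries with the most muscle transcripts. Of the 7 small heat shock proteins tested, 4 were highest in PBS 2, 2 in Rb2 3 and 1 in PBS 1. The part of muscle in these levels was not tested.

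**Figure D4:**
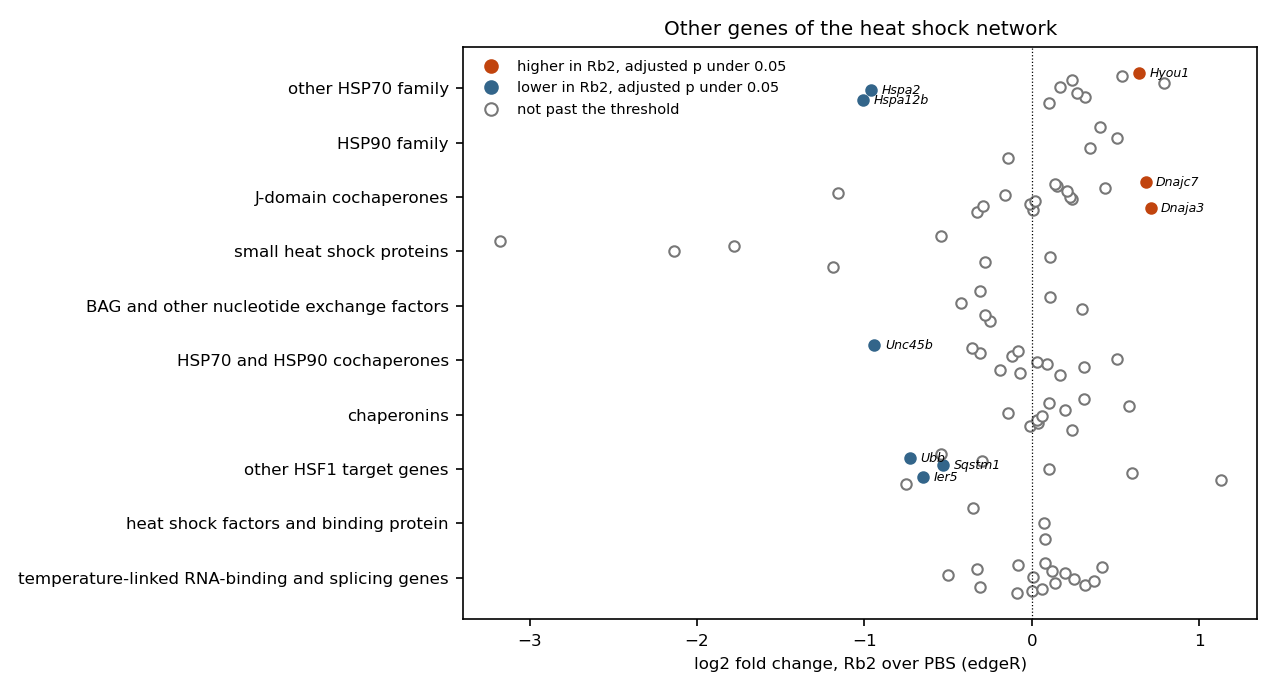
Log2 fold change (Rb2 over PBS, x axis) of tested genes in 10 lists (rows), all but 1 of the 93; filled points passed the edgeR threshold (orange higher, blue lower in Rb2) and are named, open points did not. The 3 genes that rose lie between 0.64 and 0.71 and those drawn that fell between -1.01 and -0.53.

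Rb2 3 was often the highest library in the wider chaperone network, a pattern described after its values were seen. Of the 93 genes 42 had their highest level of the 6 libraries in Rb2 3, against 2128 of all 16707 genes tested, and all 10 chaperonins did. The margin was mostly small: Rb2 3 exceeded both other Rb2 libraries by over 1.5 times in 14 of the 93 (15.1%), against 3.54% of all genes tested, and in 0 of the chaperonins. Hsp90aa1, the inducible Hsp90, stood at 247, 538 and 224 CPM in Rb2 1, 3 and 4, against 534, 214 and 365 CPM in PBS 1, 2 and 4. Dnaja1 stood at 157, 324 and 184 CPM in Rb2, against 381, 188 and 267 CPM in PBS. Hspb1 stood at 96.8, 354 and 169 CPM in Rb2, against 311, 184 and 257 CPM in PBS. For these genes and Hsph1, Rb2 3 and PBS 1 were the 2 highest libraries, yet the summed Hspa1a and Hspa1b level was 53.3 CPM in Rb2 3 and 777 CPM in PBS 1.

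Other features of the libraries are given here, and not all of them moved with the groups. The share called is given for each list, against 10.4% of all genes tested. Of 19 circadian clock genes 10 rose and 4 fell (73.7%). Dbp, a clock output factor, stood at 95.5 ± 35.6 CPM in Rb2, against 6.69 ± 1.63 CPM in PBS. Per2, a core clock gene, stood at 20.5 ± 5.80 CPM in Rb2, against 8.84 ± 0.951 CPM in PBS. Cirbp and several heat shock genes are known to cycle over the day with body temperature in mice. Of 18 immediate early genes 1 rose and 2 fell (16.7%). Of 9 blood and immune markers 3 fell (33.3%), all haemoglobin genes. The blood and immune list summed to 394 to 638 CPM in Rb2 and 824 to 1160 CPM in PBS. Of 12 brown adipocyte markers 2 fell (16.7%), and the list summed to 12600 to 16900 CPM in Rb2 and 15600 to 16800 CPM in PBS. The part of these in the differences of the 10 genes was not tested.

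Muscle transcripts were higher in PBS 1 and PBS 2 than in every Rb2 library, and lower in PBS 4 than in Rb2 3 and Rb2 4; their part in the differences of the 10 genes was not tested. With PBS 1 and PBS 2 left out, the log2 fold changes against PBS 4 were -4.02 for Hspa1a, -3.81 for Hspa1b, -3.31 for Hspa1l, -1.33 for Bag3, -1.08 for Dnajb1 and -0.99 for Cirbp. No gene passed the threshold in that edgeR fit, which has 1 PBS library, assumed to vary like the Rb2 ones; 2063 genes and 6 of the 10 had an unadjusted p under 0.05. GC-rich genes tended to be higher in PBS 2 and PBS 4 and lower in the Rb2 libraries (Spearman rho, across 15770 genes that are not independent, between GC content and the deviation from the mean, from -0.289 to -0.134 in Rb2, and 0.004, 0.349 and 0.388 in PBS 1, 2 and 4). With GC content and transcript length fitted as an offset, Hspa1l (GC content 53.2%) was at -3.21, Bag3 (56.1%) at -1.14 and Cirbp (53.7%) at -0.41, and Bag3 and Cirbp were no longer called. With 1 library left out, the call of Bag3 was also lost without Rb2 1 (-1.38), and that of Cirbp in each of the 6 fits (-0.78 to -0.46). Of the 10 calls in the other lists 2 remained without Rb2 1, 0 without Rb2 3, 2 without PBS 1 and 0 without PBS 2, and 8 each without Rb2 4 and without PBS 4.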

How the data were processed

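The table that the authors deposited holds raw read counts per gene for 3 Rb2 and 3 PBS libraries. Per the labels' protocols, RNA was purified on a silica column and made into strand-marking mRNA libraries. The submitters' processing notes name Trimmomatic, HISAT2, Bowtie2, StringTie and the mm10 build, without versions or roles. The sources used here do not name the counting program or say how it treated strand and reads matching several genes. The column numbers (1, 2 and 4; 1, 3 and 4) differ from the replicate numbers of the titles, so columns were tied to groups only, and the numbers pair nothing.

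Counts of 45777 genes were tested with edgeR 4.0.16 (R 4.3.3; quasi-likelihood, TMM, robust, default filter with a count minimum of 10 and a minimum total of 15), with Benjamini-Hochberg adjustment over the 16707 genes left and a threshold of 0.05. SE is the absolute log2 fold change over the root of F. The smallest library, of 83642183 counts, puts the limit of a count of 0 at 3 counts, or 0.0370 CPM. Positions, lengths and sequences came from RefSeq (GRCm38.p6) and GENCODE M21 (GRCm38, the assembly of mm10); all 10 genes matched by symbol and gene ID. The test was tried on simulated counts of 16341 genes. It recovered 64 of 100 genes changed 2-fold and 89 of 100 changed 4-fold, and 17 unchanged genes were called. Those 17 were a larger share of the simulated calls than the threshold of 0.05 aims at. Other settings were DESeq2 1.42.0 (size factors; Wald test), library size alone, limma-voom 3.58.1, no filter, a count minimum of 50, each library left out, both muscle-rich PBS libraries (1 and 2) left out, a muscle covariate, a block on the column numbers, an offset for GC content and length (splines with 5 degrees of freedom each; 94.4% of genes had values), and Hspa1a and Hspa1b summed. Libraries of every pair differed by more than sampling noise (chi-square per degree of freedom at least 113), so none was a repeat sequencing of another. This check cannot tell whether 2 libraries were made from 1 mouse. The labels say that 3 mice were used per group.

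The 10 genes, the lists and the settings were chosen with earlier results of these data known. Named from each list were up to 4 genes past the threshold with the smallest p where at least 3 passed, and otherwise the 2 genes with the smallest p; 1 such gene is counted but not reported here.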

Additional observations from a re-analysis of the deposited data

How the results depend on the processing

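Genes called numbered 1743 with the settings above, 3309 with the DESeq2 Wald test, 897 with the muscle covariate, and 303 to 2269 with 1 library left out. Of the 10 genes 3 were called, against 6 with the DESeq2 Wald test, 1 with the GC content and length offset, and 1 to 4 with 1 library left out. Of the other heat shock network genes 10 were called, against 22 with the DESeq2 Wald test and 1 to 13 with 1 library left out. With both muscle-rich PBS libraries (1 and 2) left out all 3 counts were 0 in edgeR (2063, 6 and 11 at an unadjusted p under 0.05). With library size alone 492 genes were higher and 779 lower, against 890 and 853, and with the GC content and length offset 813 and 499. Library size alone moved the median of all genes to -0.10, and Cirbp was then at -0.74 and not called. The replicate block on the column numbers 1 and 4, carried by both groups, called 96 genes, 60 of them among the 1743, 3 of the 10 genes (Dnajb1 in place of Cirbp) and 0 of the network genes (21 at an unadjusted p under 0.05); the numbers are not tied to mice, and deviations of same-numbered libraries had correlations of -0.197 and -0.215. Hspb2 (0.12) and Hspb6 (0.07) changed sign without both muscle-rich PBS libraries, Hspbp1 (0.10) and Hsf4 (0.13) with the offset, and Hsbp1 with the block (-0.05) and without Rb2 3 (0.00, in a range of 0.00 to 0.15 with 1 library left out); none was called in the settings that turned its sign. Of the 10 genes, Hspa8 turned to -0.04 with the block, Hsf1 to -0.12 without PBS 1 and -0.07 with library size alone, and Hsph1 to 0.29 without PBS 1, 0.15 without Rb2 1 and 0.14 without Rb2 4. The cause of these shifts was not tested. Depth limits Hspa1l most, with 20 counts in Rb2 4, the lowest of the 10 genes.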
